A study of Rattus norvegicus with 16 samples.

Results

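Rab GTPases, the small switch proteins that give each membrane compartment of a cell its identity, were followed in cultured rat hippocampal neurons through every array probe for a transcript whose gene name is Rab, a number and at most 1 further letter. The rule found 89 of the 41012 probes on the array, for 54 of 35199 gene names, and 81 of them, for 50 names, gave enough signal and values to be tested. The 7 probes left out for low signal were those for Rab17, Rab25, Rab27a and Rab44 and 1 probe each of Rab19, Rab32 and Rab38, and 1 probe of Rab31 had too few values. The cultures were made from embryos of Sprague-Dawley rats at embryonic day 18 to 19 and formed 4 groups of 4 samples, which the study design calls biological replicates. Cells of the not transduced group received no virus. The nontargeting group carried a lentivirus with a non-targeting short hairpin RNA (shRNA), the knockdown group carried a pTRIP lentiviral shRNA against the coding region of PRR7, and the overexpression group carried full-length PRR7 in the lentiviral vector FUGW. PRR7 is a membrane-spanning adaptor found at synapses, and the study concerns its effect on the transcription factor c-Jun. Whole transduced cultures were lysed, so the share of cells that carried a virus is not given in the sources used here. No probe on the array is named Prr7, so knockdown and overexpression of the targeted gene could not be checked here.

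A Rab protein cycles between a bound GDP and a bound GTP. Exchange factors (GEFs) switch it on at a membrane, where it recruits effectors such as tethers and motors, and GTPase-activating proteins (GAPs) switch it off. In neurons Rab5 and Rab4 act in the uptake and fast return of receptors at early endosomes, Rab11 in slower recycling, Rab7 and Rab9 on late endosomes, and Rab1, Rab2, Rab6, Rab8, Rab10, Rab3 and Rab27 on the way from the endoplasmic reticulum and Golgi to the cell surface and synapse.

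Each array was read in 2 dyes and carried 2 samples of the same group, and 8 arrays lay on 2 slides. Knockdown and nontargeting arrays shared a slide, as did overexpression and not transduced arrays. Nontargeting against not transduced and knockdown against not transduced therefore span slides, and there slide and group cannot be told apart. Levels are log2 intensities after background correction and normalization, and levels of different probes are not compared. Well above background were 49.2% to 69.6% of the probes in a sample, the median net signal ranged from 73.2 to 150 intensity units, and the small number of arrays limits the precision. None of the Rab probes for which values are given below had a saturated spot.

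Probes of the Rab4 pair, Rab9b, Rab10, Rab20, Rab7a, Rab6b and Rab6a held the log2 differences of at least 1 among the probes counted here, and most of these set the nontargeting or the knockdown cultures apart. In knockdown against nontargeting, 18 of the 81 Rab probes passed the test (limma, Benjamini-Hochberg adjusted p under 0.05 over all 27294 probes tested), 7 higher and 11 lower, beside 21% of all probes (10.3% higher and 10.8% lower). This split depends on the settings: it was 12 higher and 12 lower with the replicate number as a block, 12 and 4 with the deposited value table, where the median of all probes was 0.16, and 20 and 3 without alignment between arrays, where that median was 0.64. The median log2 difference of the Rab probes was -0.0045, and that of all probes was -0.0212. In nontargeting against not transduced, 23 Rab probes passed, 7 higher and 16 lower, beside 22.2% of all probes (11.2% higher and 11.1% lower). In knockdown against not transduced, 9 passed, 1 higher and 8 lower, beside 10.1% of all probes (4.76% higher and 5.36% lower). Some genes, such as Rab9b, hold more than 1 of these probes. The split was 1 higher and 3 lower with 1 probe per gene name, and 2 and 3 with the deposited value table. The first and second of these comparisons share the nontargeting samples, and the last shares samples with each of the others. In overexpression against not transduced no Rab probe passed in limma, beside 0.00366% of all probes. An unadjusted p under 0.05 was found for 1 Rab probe there, which is 1.23% beside 3.8% of all probes. The genes Rab4b, Rab9b and Rab10, were selected on their log2 differences between the groups of these data, so their values are given as a description without a test, and the counts above include them.

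**Figure D1:**
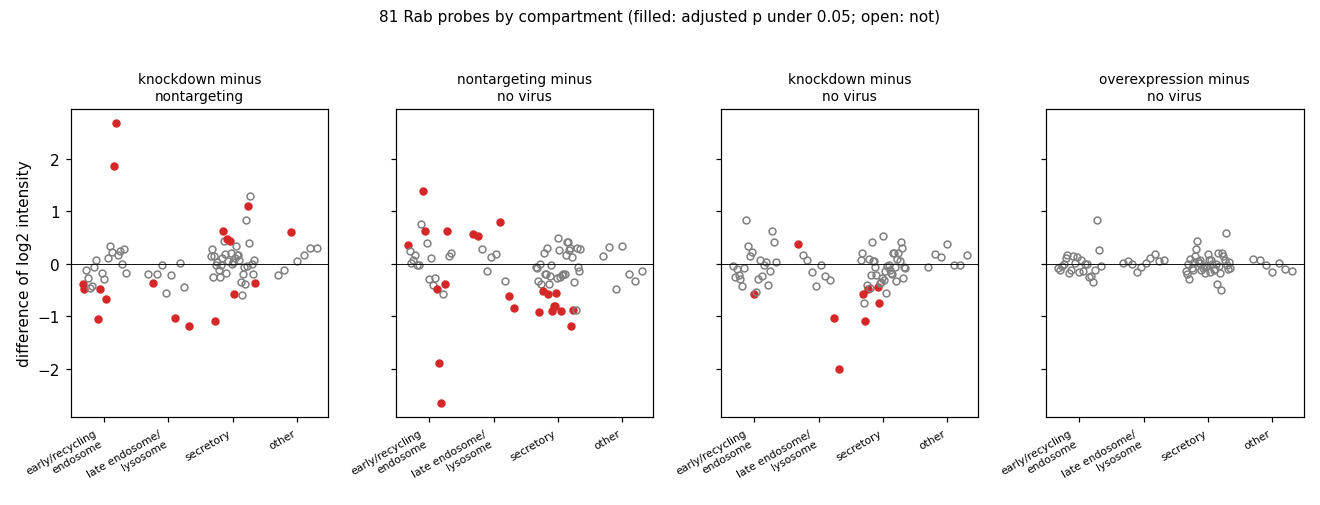
Difference of mean log2 intensity for the 81 tested Rab probes in 4 comparisons, 1 point per probe, placed by the compartment of the Rab; filled points passed the test (limma adjusted p under 0.05) and open points did not. The spread in overexpression minus no virus is narrow, between -0.51 and 0.85. The Rab4b probe reaches 2.69 in knockdown minus nontargeting and -2.65 in nontargeting minus no virus. Points of Rab4b, Rab9b and Rab10, which were selected on these data, are a description whether filled or open.

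The counts by compartment are to be read against the same shares of all probes, 10.3% higher and 10.8% lower in knockdown against nontargeting and 11.2% and 11.1% in nontargeting against not transduced. The 23 tested probes of early and recycling endosome Rabs gave 2 higher and 5 lower in knockdown against nontargeting, and 4 higher and 4 lower in nontargeting against not transduced. The 10 probes of late endosome and lysosome Rabs gave 0 higher and 3 lower in the first comparison, and 3 higher and 2 lower in the second. The 41 probes of secretory Rabs gave 4 higher and 3 lower in the first, and 0 higher and 10 lower in the second. Of the 7 probes of Rab23, Rab28, Rab40b and Rab40c, which were placed in none of these, 1 was higher in knockdown than in nontargeting cultures. None of the 7 passed in nontargeting against not transduced. There 4 had an unadjusted p under 0.05, beside 35.1% of all probes. In knockdown against not transduced the shares of all probes were 4.76% higher and 5.36% lower. The counts there were 0 higher and 1 lower for early and recycling endosomes, 1 higher and 2 lower for late endosomes, and 0 higher and 5 lower for the secretory Rabs. The 2 lower late endosome probes are both of Rab9b.

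Rab4a and Rab4b, the paralogs that return cargo from early endosomes to the plasma membrane, were both low in the nontargeting cultures alone. Each is read by a single probe that spans an intron, Rab4a on chromosome 19 from 54013324 to 54016531 (plus strand) and Rab4b on chromosome 1 from 82247038 to 82248566 (minus strand), on rn4. The sequences are shown to set the probes of the 2 paralogs side by side, and the capitals mark the longest run of bases that they share.
Rab4a: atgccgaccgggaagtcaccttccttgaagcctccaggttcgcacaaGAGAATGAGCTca
Rab4b: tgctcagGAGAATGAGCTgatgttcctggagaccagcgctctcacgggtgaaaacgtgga
The shared run is 11 bases of the 60 in each probe and lies near the end of the Rab4a probe and near the start of the Rab4b probe.

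The log2 intensity of Rab4b was 12.10, 11.79, 12.36 and 12.38 in the not transduced samples, 9.49, 9.53, 9.49 and 9.49 in the nontargeting samples, 12.28, 12.07, 12.40 and 12.03 in the knockdown samples, and 12.12, 11.82, 12.004 and 11.76 in the overexpression samples. All 4 nontargeting samples lay below every other sample, and the other 3 groups overlapped. The knockdown mean was 6.47-fold above the nontargeting mean (log2 difference 2.69, SE 0.15), and the nontargeting mean was 6.30-fold below the not transduced mean (-2.65, SE 0.15). Knockdown and not transduced cultures differed by 0.04 (SE 0.15).

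For Rab4a the values were 11.69, 11.44, 11.91 and 11.66 in not transduced, 9.58, 9.65, 10.06 and 9.87 in nontargeting, 11.61, 11.54, 11.81 and 11.68 in knockdown, and 11.43, 11.33, 11.51 and 11.40 in overexpression samples. The nontargeting samples again lay below all others. Rab4a rose 3.65-fold in knockdown against nontargeting cultures (1.87, SE 0.13, limma adjusted p = 2.53e-07) and fell 3.68-fold in nontargeting against not transduced cultures (-1.88, SE 0.13, adjusted p = 2.76e-07). Its difference between knockdown and not transduced cultures was -0.01 (95% interval -0.29 to 0.26).

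**Figure D2:**
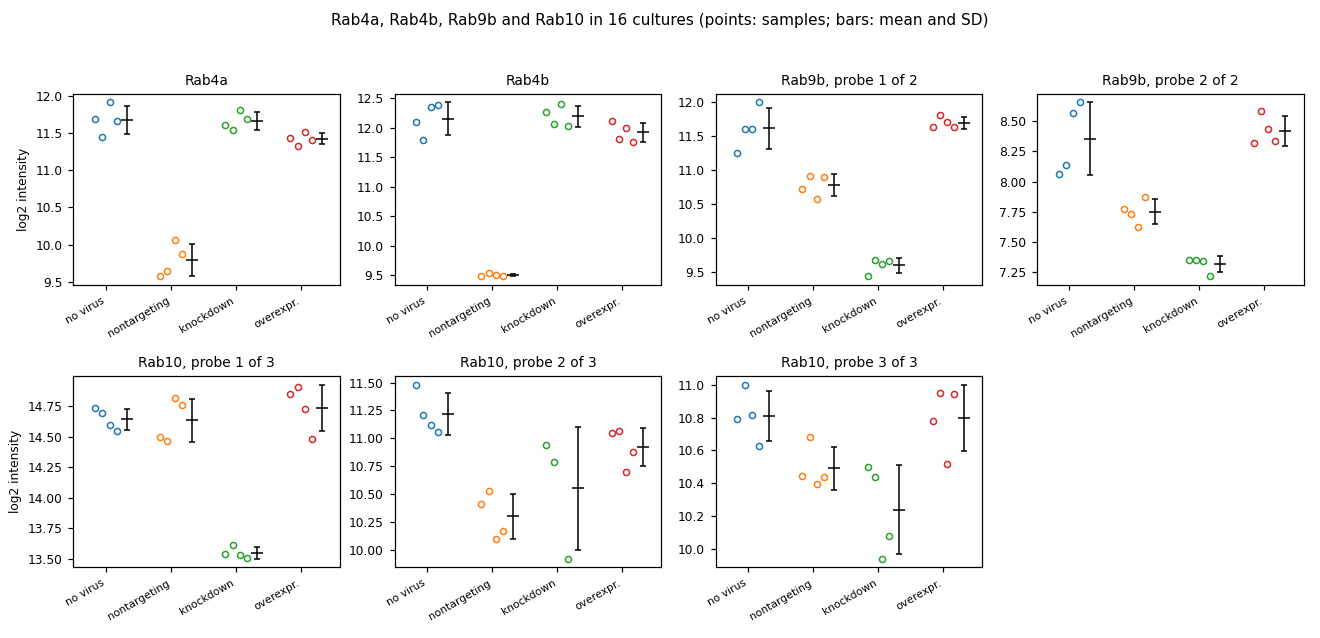
Log2 intensity of every probe of Rab4a, Rab4b, Rab9b and Rab10 in the 16 samples, with points for samples in replicate order and a bar for the mean and SD of each group (n = 4, and 3 for knockdown in the second Rab10 probe). The probes of a gene are ordered by level; the nontargeting samples lie lowest for Rab4a and Rab4b, and the knockdown samples lie lowest for both Rab9b probes and for the brightest Rab10 probe, near 13.55.

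The 250 bases before the annotated starts of both genes are shown because their transcripts moved alike. They are from RefSeq on GRCr8, and capitals mark TGANTCA, the binding motif of AP-1 (the dimer that contains c-Jun), and CCAAT, searched on both strands with no overlap between them. The Rab4a stretch is chr19:68692831-68693080 (plus strand) and the Rab4b stretch chr1:91600338-91600587 (minus strand).
Rab4a: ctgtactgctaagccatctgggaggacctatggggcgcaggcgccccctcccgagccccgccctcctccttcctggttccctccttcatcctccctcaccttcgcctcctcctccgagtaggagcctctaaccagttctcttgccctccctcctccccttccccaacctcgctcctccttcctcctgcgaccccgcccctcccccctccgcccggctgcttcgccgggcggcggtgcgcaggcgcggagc
Rab4b: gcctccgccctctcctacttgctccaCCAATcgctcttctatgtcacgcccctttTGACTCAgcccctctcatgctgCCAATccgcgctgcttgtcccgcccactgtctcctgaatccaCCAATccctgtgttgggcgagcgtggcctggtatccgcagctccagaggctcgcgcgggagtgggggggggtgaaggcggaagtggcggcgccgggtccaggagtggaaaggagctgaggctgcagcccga
The Rab4b window holds 1 AP-1 motif and 3 CCAAT motifs, and the Rab4a window holds neither. An AP-1 motif lies in 6.34% of 33469 windows of this length and in 4 of the 48 Rab windows, namely those of Rab4b, Rab9a, Rab27b and Rab34. CCAAT lies in 34% of all windows and in 16 of the 48. These are matches of letters and were not tested as binding sites.

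Rab20, a Rab of endosomes and phagosomes, took the opposite course to the Rab4 pair. Its values were 6.999, 7.39, 7.64 and 7.26 in not transduced, 8.48, 8.65, 8.85 and 8.84 in nontargeting, 7.50, 7.52, 7.79 and 7.84 in knockdown, and 7.39, 7.43, 7.47 and 7.62 in overexpression samples. All nontargeting samples stood above all others. Rab20 fell 2.06-fold in knockdown against nontargeting cultures (-1.04, SE 0.18, adjusted p = 0.000847) and rose 2.61-fold in nontargeting against not transduced cultures (1.38, SE 0.18, adjusted p = 9.66e-05). The probe is dim, well above background in 3 of 4 not transduced and 3 of 4 overexpression samples. Without the alignment of arrays to each other, the fall in knockdown was -0.22 and did not pass (adjusted p = 0.567), in a setting where the median of all probes moved to 0.64.

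Among the other Rabs of early and recycling endosomes, changes were under 2-fold and several rested on part of a gene's probes. Rab11a, the Rab of recycling endosomes, was lower in knockdown than in nontargeting cultures on 2 of its 3 probes (-0.39, adjusted p = 0.0175, and -0.48, adjusted p = 0.00901), and its remaining probe gave -0.11 (adjusted p = 0.851). Rab21, which carries integrins from the cell surface, fell by 0.47 on 1 probe (adjusted p = 0.00556) and the other gave -0.17 (adjusted p = 0.433). That first Rab21 probe was higher in nontargeting than in not transduced cultures by 0.63 (adjusted p = 0.000588). Rab22a fell by 0.66 on 1 of 3 probes in knockdown against nontargeting cultures (adjusted p = 0.0156), and a different probe of it fell by 0.57 in knockdown against not transduced cultures (adjusted p = 0.00543). Of the Rab5 family, the Rabs of endocytic uptake, no probe passed in knockdown against nontargeting cultures. In nontargeting against not transduced cultures 1 of 3 Rab5c probes was higher (0.63, adjusted p = 0.0479) and Rab5b was lower (-0.37, adjusted p = 0.0406). Rab35, which acts in a fast recycling route, fell by 0.47 in nontargeting against not transduced cultures (adjusted p = 0.00233).

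On late endosomes Rab9b, a Rab of the return path from late endosomes to the Golgi, was lowest in the knockdown cultures. Its brighter probe lies on chromosome X from 124526177 to 124526236 (rn4, minus strand). This probe gave 11.25, 11.60, 11.60 and 11.99 in not transduced, 10.72, 10.91, 10.57 and 10.89 in nontargeting, 9.44, 9.68, 9.62 and 9.66 in knockdown, and 11.62, 11.81, 11.70 and 11.63 in overexpression samples. The groups formed 3 separate levels, with knockdown below nontargeting and nontargeting below the other two, which overlapped. Knockdown lay 4.04-fold below not transduced (-2.01, SE 0.14) and 2.26-fold below nontargeting (-1.17, SE 0.14), and nontargeting lay 1.79-fold below not transduced (-0.84, SE 0.14).

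The second Rab9b probe, from 124527990 to 124528049, gave means of 8.36 ± 0.30 in not transduced, 7.75 ± 0.10 in nontargeting, 7.32 ± 0.07 in knockdown and 8.42 ± 0.12 in overexpression samples (SD, n = 4). The order of the groups is that of the brighter probe. It was well above background in 2 of 4 knockdown and 3 of 4 nontargeting samples, and its knockdown samples lay 1.04 below not transduced (SE 0.15). Over the alternative settings this difference ranged from -2.52 to -0.46, so its size is not settled.

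Rab7a, which drives transport to and fusion with lysosomes, was highest in the nontargeting cultures. Its values were 11.70, 12.09, 11.87 and 11.89 in not transduced, 12.41, 12.62, 12.79 and 12.95 in nontargeting, 11.54, 11.77, 11.59 and 11.72 in knockdown, and 11.97, 11.92, 11.97 and 12.15 in overexpression samples. The nontargeting samples did not overlap with any other group. Rab7a fell 2.06-fold in knockdown against nontargeting cultures (-1.04, SE 0.13, adjusted p = 5.67e-05) and rose 1.75-fold in nontargeting against not transduced cultures (0.81, SE 0.13, adjusted p = 0.000522). Without the alignment of arrays the rise was 0.44 and did not pass (adjusted p = 0.27). Rab12, which directs the transferrin receptor to degradation, was higher in nontargeting than in not transduced cultures on 2 of 3 probes (0.57, adjusted p = 0.00179, and 0.54, adjusted p = 0.00691), and its remaining probe gave 0.28 (adjusted p = 0.212).

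**Figure D3:**
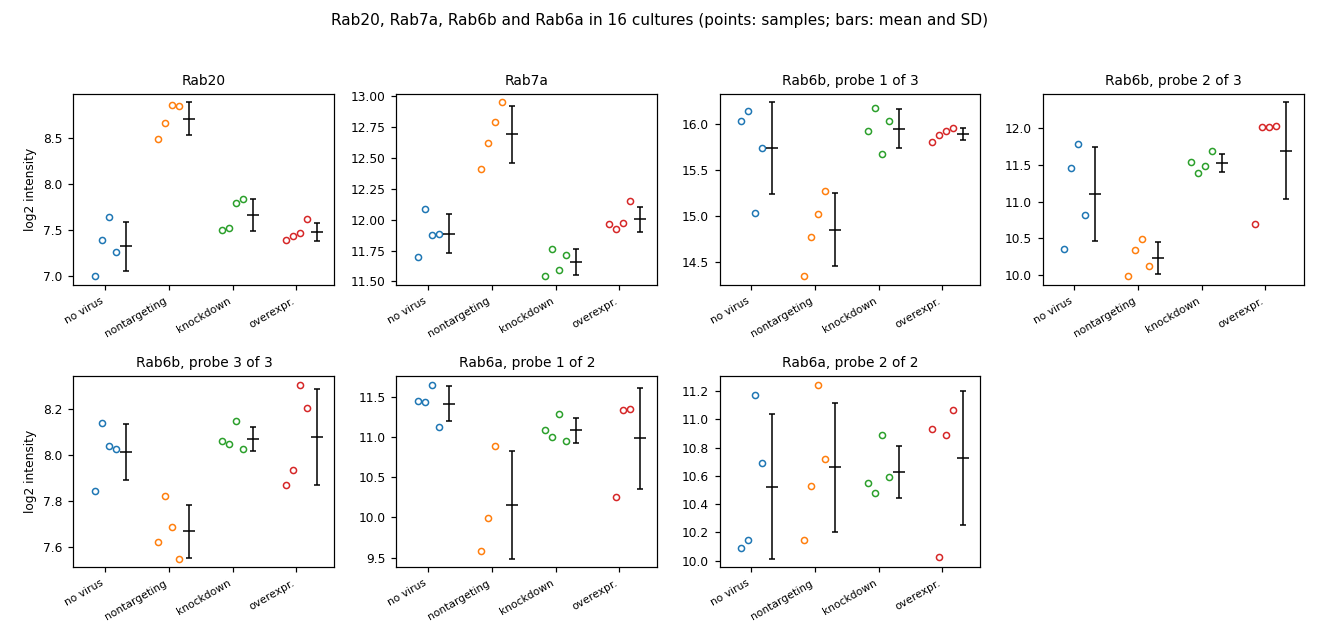
Log2 intensity of every probe of Rab20, Rab7a, Rab6b and Rab6a in the 16 samples, with points for samples in replicate order and a bar for the mean and SD of each group. Rab20 and Rab7a are highest in the nontargeting samples (means 8.71 and 12.69), the brightest Rab6b probe is lowest there (14.85), and the 2 Rab6a probes differ.

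In the secretory pathway Rab10, a Rab of exocytosis and membrane growth, differed between its probes. The brightest probe lies on a part of chromosome 6 that rn4 did not place, from 438255 to 438314. It gave 14.74, 14.69, 14.60 and 14.55 in not transduced, 14.50, 14.47, 14.82 and 14.76 in nontargeting, 13.54, 13.61, 13.53 and 13.51 in knockdown, and 14.85, 14.90, 14.72 and 14.48 in overexpression samples. The 4 knockdown samples lay below all 12 others, and the other groups overlapped. Knockdown lay 2.12-fold below nontargeting (-1.09, SE 0.13) and 2.14-fold below not transduced (-1.10, SE 0.13). Nontargeting and not transduced differed by -0.01 (SE 0.13).

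The other Rab10 probes overlap each other in the coding sequence, and the capitals mark the 35 bases that they share. The bases on both sides of this run differ between the probes. On rn4 the intron-spanning probe is placed on the unplaced part of chromosome 6, from 444036 to 447755. The second is placed on chromosome 6 itself, from 26257166 to 26257225.
Rab10, probe that spans an intron: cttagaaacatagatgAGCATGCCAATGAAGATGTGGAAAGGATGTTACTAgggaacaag
Rab10, second coding probe: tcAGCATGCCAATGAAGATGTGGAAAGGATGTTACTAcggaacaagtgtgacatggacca
The intron-spanning probe gave means of 11.22 ± 0.19 in not transduced, 10.30 ± 0.20 in nontargeting and 10.92 ± 0.17 in overexpression samples (SD, n = 4), and 10.94, 10.79 and 9.92 in 3 knockdown samples, the fourth value being missing. Knockdown lay 0.16 above nontargeting (SE 0.24) and 0.75 below not transduced (SE 0.24). The second coding probe gave 10.81 ± 0.15 in not transduced, 10.49 ± 0.13 in nontargeting, 10.24 ± 0.27 in knockdown and 10.80 ± 0.20 in overexpression samples (SD, n = 4). On it knockdown lay 0.25 below nontargeting (SE 0.17) and 0.57 below not transduced (SE 0.17). The knockdown level was thus below that of the not transduced cultures on all 3 probes, but below nontargeting by more than 2-fold on the brightest alone.

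The brightest Rab10 probe shares 8 bases with the end of the PRR7 shRNA target that the labels give, and the stretch is shown for that reason, with the shared bases in capitals.
PRR7 shRNA target: cggaatcggacATGTCTAA
Rab10, 30 bases of the brightest probe: tgaaaaatgcaATGTCTAAgcttttgaagt
This Rab10 probe was the only one of the 89 Rab probes that held ATGTCTAA, or its first 7 bases. A probe of Rab11a held a longer run of the target, 9 bases that start at base 9. The match was looked for after the Rab10 values had been seen, and it covers the 60 bases of each probe and no other part of a transcript. Apart from this Rab10 probe, 25 tested probes held ATGTCTAA in the printed orientation. In knockdown against not transduced cultures 9 of the 25 were lower and 0 higher, with a median log2 difference of -0.29. Among all probes 5.36% were lower and 4.76% higher there, with a median of 0.0006. In knockdown against nontargeting cultures 9 were lower and 3 higher, beside 10.8% lower and 10.3% higher among all probes. The 28 probes with the reverse complement, TTAGACAT, gave 5 lower (17.9%) and 1 higher (3.57%) in the first comparison. In the second they gave 5 lower (17.9%) and 6 higher (21.4%). These counts are a description, and the part of the match in the Rab10 level was not tested.

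Rab6b, the form of the Golgi Rab that is enriched in neurons, was low in nontargeting cultures on its brightest probe. It gave 16.03, 16.15, 15.03 and 15.74 in not transduced, 14.34, 14.78, 15.02 and 15.27 in nontargeting, 15.93, 16.17, 15.68 and 16.03 in knockdown, and 15.81, 15.88, 15.92 and 15.96 in overexpression samples. The nontargeting samples lay below all knockdown and overexpression samples and overlapped with 1 not transduced sample. Rab6b rose 2.14-fold in knockdown against nontargeting cultures (1.10, SE 0.24, adjusted p = 0.00361) and fell 1.84-fold in nontargeting against not transduced cultures (-0.88, SE 0.24, adjusted p = 0.0143). Its other probes gave 1.30 (SE 0.51, adjusted p = 0.0853) and 0.40 (SE 0.14, adjusted p = 0.0584) in the first comparison. The fall in nontargeting cultures did not pass with 1 value per array (adjusted p = 0.065), nor without the array of not transduced replicates 1 and 2 (0.171) or that of nontargeting replicates 1 and 2 (0.107).

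Rab6a, the widely present Golgi form, gave discordant probes. One gave 11.45, 11.43, 11.65 and 11.12 in not transduced samples, 9.59, 9.99 and 10.89 in 3 nontargeting samples, 11.09, 10.997, 11.29 and 10.95 in knockdown samples, and 10.26, 11.34 and 11.35 in 3 overexpression samples. It fell in nontargeting against not transduced cultures (-1.18, SE 0.34, adjusted p = 0.0264), but the call rests on few values. The difference was -1.07 without not transduced replicate 3 (adjusted p = 0.0636), -1.07 with 1 value per array (0.128), -1.17 without the array of not transduced replicates 1 and 2 (0.104), and -1.19 without that of replicates 3 and 4 (0.0849). The other Rab6a probe gave 0.14 (SE 0.35, adjusted p = 0.823) there.

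Rab2b, a Rab of transport between the endoplasmic reticulum and the Golgi, fell in nontargeting against not transduced cultures on all 4 of its probes, by 0.91, 0.79, 0.80 and 0.56, with adjusted p between 4.91e-05 and 0.0281. On its probe with the smallest p the means were 11.42 in not transduced, 10.52 in nontargeting, 10.99 in knockdown and 11.34 in overexpression samples. In knockdown against not transduced cultures 2 of the 4 probes were lower (-0.43, adjusted p = 0.0207, and -0.74, adjusted p = 0.00206). In knockdown against nontargeting cultures 2 of the 4 were higher (0.47, adjusted p = 0.0062, and 0.43, adjusted p = 0.0319). The others gave 0.06 (adjusted p = 0.818) and 0.21 (adjusted p = 0.431) there. Rab18, of lipid droplets and the endoplasmic reticulum, was lower than in not transduced cultures in both shRNA groups, by 0.52 in nontargeting (adjusted p = 0.00861) and by 0.48 in knockdown (adjusted p = 0.0246). Rab27b, a Rab of regulated secretion, was higher in knockdown than in nontargeting cultures on 1 probe (0.63, adjusted p = 0.0321), and its other probe gave 0.44 (adjusted p = 0.0524). Rab33b, which acts at the Golgi and in autophagy, fell by 0.58 in knockdown against nontargeting cultures (adjusted p = 0.00493) on a probe above background in 9 of 16 samples. Rab3a, the main Rab of synaptic vesicles, gave 0.17 there (SE 0.18, adjusted p = 0.574) and -0.19 in nontargeting against not transduced cultures (SE 0.18, adjusted p = 0.478).

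PRR7 overexpression moved no Rab probe past the threshold. The Rab probe with the smallest unadjusted p, one of 3 for Rab5c, was named after its values were seen. It gave 8.52, 9.45, 8.91 and 8.97 in not transduced samples and 9.55, 9.97 and 9.71 in the 3 overexpression samples with a value, a difference of 0.85 (SE 0.22, adjusted p = 0.977). Its other probes gave 0.27 (SE 0.21) and -0.03 (SE 0.12). For Rab4a the difference was -0.26 (95% interval -0.53 to 0.02). For Rab4b it was -0.23 (SE 0.15), and for the brightest probes of Rab9b and Rab10 0.08 (SE 0.14) and 0.10 (SE 0.13).

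The proteins that regulate Rabs or act for them were followed on 188 tested probes of 137 genes, from a list of 175. In knockdown against nontargeting cultures 42 of these probes passed, 23 higher and 19 lower, and in nontargeting against not transduced cultures 39 passed, 18 higher and 21 lower. These are 22.3% and 20.7% of the probes, beside the 21% and 22.2% of all probes. In knockdown against not transduced cultures 9 passed, 3 higher and 6 lower (5 in all without knockdown replicate 4). That is 4.79% of the 188 probes, beside 10.1% of all probes. In overexpression against not transduced cultures none passed in limma. There 7 had an unadjusted p under 0.05, which is 3.72% beside 3.8% of all probes. Medians of the 188 log2 differences lay between -0.03 and 0.0002.

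Of the 30 probes for effectors of early and recycling endosomes, 7 rose and 5 fell in knockdown against nontargeting cultures, and 1 rose and 5 fell in nontargeting against not transduced cultures. The shares of all probes that rose and fell, 10.3% and 10.8% in the first comparison and 11.2% and 11.1% in the second, hold for each list of regulators and effectors. Rabep1 encodes rabaptin, an effector that binds Rab4 and Rab5. Its brighter probe gave 13.63, 13.91, 13.69 and 14.08 in not transduced, 11.84, 12.28, 12.75 and 12.95 in nontargeting, 14.06, 14.35, 14.02 and 14.27 in knockdown, and 13.57, 13.95, 13.56 and 13.96 in overexpression samples. The nontargeting samples lay below all others. Rabep1 rose by 1.72 in knockdown against nontargeting cultures (SE 0.17, adjusted p = 6.81e-06) and fell by 1.38 in nontargeting against not transduced cultures (SE 0.17, adjusted p = 6.11e-05), and its second probe moved the same way (0.86 and -1.10, adjusted p = 0.011 and 0.00234).

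Vps45, the SNARE regulator of endosomal fusion, was likewise lowest in the nontargeting samples. It gave 10.80, 10.61, 10.93 and 10.73 in not transduced, 8.88, 9.14, 9.40 and 9.24 in nontargeting, 10.36, 10.31, 10.50 and 10.40 in knockdown, and 10.78, 10.72, 10.66 and 10.65 in overexpression samples. It rose 2.34-fold in knockdown against nontargeting cultures (adjusted p = 1.86e-05) and fell 3.04-fold in nontargeting against not transduced cultures (adjusted p = 2.5e-06). Myo5b, the myosin motor of Rab11 vesicles, rose by 1.03 (adjusted p = 0.000652) and fell by 0.73 (adjusted p = 0.00756) in these comparisons. Rbsn, which encodes a Rab4 and Rab5 effector of early endosomes, fell by 0.68 in knockdown against nontargeting cultures on 1 of 2 probes (adjusted p = 0.00744). Ocrl, a phosphoinositide phosphatase bound by several Rabs, gave 10.07, 10.03, 8.57 and 8.96 in knockdown samples and a mean of 10.72 in nontargeting samples (-1.31, SE 0.30, adjusted p = 0.0054), and its dimmer probe gave -0.03 (adjusted p = 0.88).

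**Figure D4:**
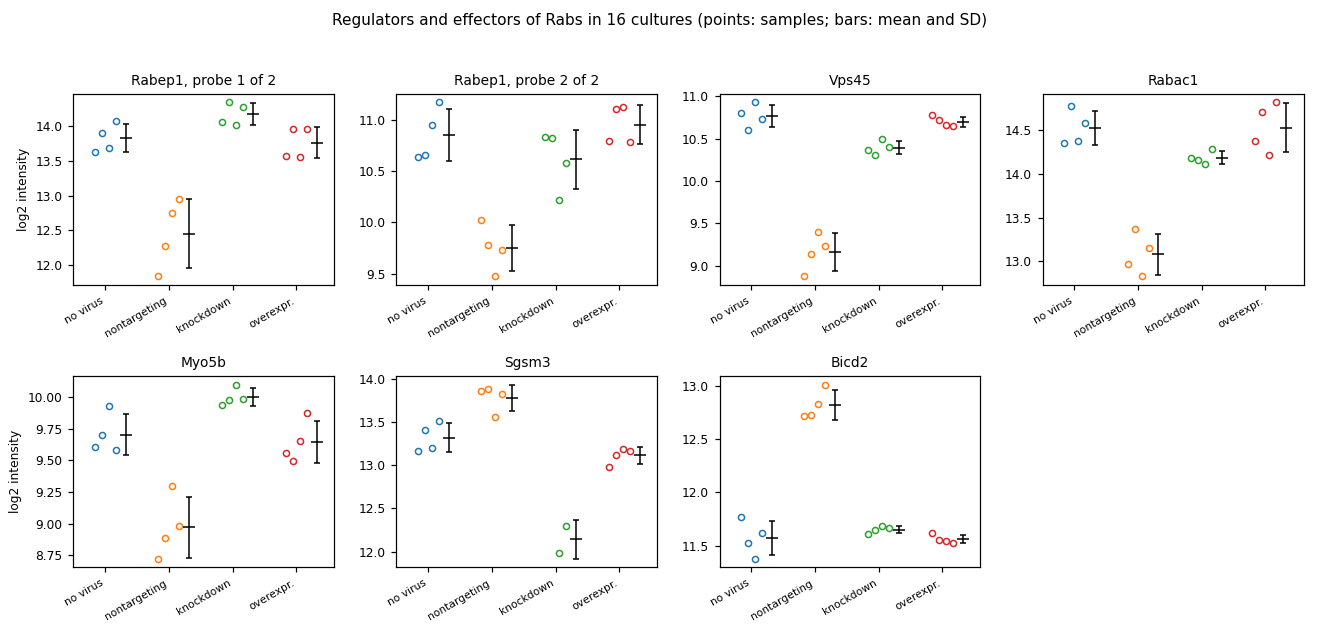
Log2 intensity of probes of 6 regulators and effectors of Rabs in the 16 samples, with points for samples in replicate order and a bar for the mean and SD of each group. Rabep1, Vps45, Rabac1 and Myo5b are lowest in the nontargeting samples, Bicd2 is highest there (mean 12.82), and Sgsm3 is lowest in knockdown, where 2 values are missing.

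Among the proteins that deliver Rabs to membranes, Rabac1, a prenylated Rab acceptor, rose by 1.11 in knockdown against nontargeting cultures (SE 0.15, adjusted p = 8.11e-05) and fell by 1.45 in nontargeting against not transduced cultures (SE 0.15, adjusted p = 9.72e-06). It was the 1 of 11 probes of that list that passed in either comparison. Of 45 probes for exchange factors 2 rose and 5 fell in knockdown against nontargeting cultures. Rab3ip, an exchange factor of Rab8, rose by 0.53 (adjusted p = 0.00547), and Dennd2c fell by 0.83 (adjusted p = 0.000154). Of 34 probes for GAPs 1 passed there, that of Sgsm3. It gave 13.16, 13.41, 13.19 and 13.51 in not transduced, 13.86, 13.88, 13.56 and 13.83 in nontargeting, and 12.98, 13.12, 13.19 and 13.17 in overexpression samples. Knockdown gave 11.99 and 12.30 in the 2 samples with a value, which share an array, below every other sample. Sgsm3 fell 3.12-fold in knockdown against nontargeting cultures (adjusted p = 1.01e-05) and 2.26-fold against not transduced cultures (adjusted p = 0.000545).

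Of 18 probes for Golgi effectors 1 rose and 4 fell in knockdown against nontargeting cultures. Bicd2, the dynein adaptor that Rab6 recruits, gave 11.77, 11.53, 11.38 and 11.62 in not transduced, 12.72, 12.72, 12.83 and 13.01 in nontargeting, 11.61, 11.64, 11.69 and 11.67 in knockdown, and 11.62, 11.55, 11.55 and 11.53 in overexpression samples. The nontargeting samples lay above all others, and Bicd2 fell by 1.17 in knockdown against nontargeting cultures (SE 0.13, adjusted p = 1.59e-05). Of 24 probes for exocytosis effectors 7 rose and 3 fell. The exocyst subunit Exoc6 rose on all 3 of its probes (0.67, 0.55 and 0.56). Mical3, an effector of Rab8 in vesicle docking, fell on both of its probes (-1.14 and -0.39, adjusted p = 0.00306 and 0.0171). The second Mical3 probe is dim, well above background in 2 of 4 nontargeting and 2 of 4 knockdown samples. Of 26 probes for late endosome effectors 5 rose and 1 fell, among them the retromer subunits Vps35 (0.64, adjusted p = 0.00113) and Vps29 (0.66, adjusted p = 0.00504), which rose, and Vps26a (-0.45, adjusted p = 0.0182), which fell.

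Neighbouring genes on the chromosome were read for the Rabs with the largest shifts. Egln2 and Mia, on either side of Rab4b, and Kif3c, beside Rab10, passed in neither knockdown against nontargeting nor nontargeting against not transduced cultures. Ccsap, beside Rab4a, rose by 0.99 in nontargeting against not transduced cultures (limma adjusted p = 0.00139), where Rab4a fell. It was also higher in knockdown than in not transduced cultures, by 0.77 (adjusted p = 0.0144). In knockdown against nontargeting cultures it gave -0.21 (adjusted p = 0.463).

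Neurons were the labelled cells, and 5 of the 8 listed neuronal markers had a value in every sample and were well above background in all 16. The summed intensity of these 5 ranged from 67740 to 90050 in nontargeting and from 62890 to 73900 in knockdown samples. It ranged from 55880 to 68940 in not transduced and from 48050 to 62400 in overexpression samples. Of the 5, 1 was lower in nontargeting than in not transduced cultures, and 1 was lower in knockdown than in nontargeting cultures. The microglial markers Aif1, Cx3cr1 and Itgam and the vascular markers Pecam1 and Lum were well above background in none, whereas the microglial marker Csf1r and the fibroblast markers Col1a1 and Dcn were well above it in all 16. Of the excitatory neuron markers, Camk2a and Slc17a7 were well above background in all 16, the summed intensity of 3 ranged from 9840 to 12020 in nontargeting and from 8134 to 16720 over the other groups, and none of the 2 tested passed in limma in the 4 comparisons. The summed intensity of the 3 interneuron markers Gad1, Gad2 and Slc32a1 ranged from 1707 to 2432 in nontargeting and 3978 to 5373 in knockdown samples. It ranged from 4278 to 9793 in not transduced and 5569 to 7379 in overexpression samples. All 3 were lower in nontargeting than in not transduced and in knockdown cultures, and 1 was lower in knockdown than in not transduced cultures. The summed intensity of 5 astrocyte markers ranged from 32910 to 46280 in nontargeting and from 50820 to 92580 over the other groups. Of the 5, 2 were lower in nontargeting than in not transduced cultures. In knockdown against nontargeting cultures 2 were higher and 1 was lower. The part of these cells in the low nontargeting levels of Rab4a, Rab4b, Rab6b and Rab2b was not tested. In bulk cultures, fewer cells of a type and less RNA per cell cannot be told apart.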

How the data were processed

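Total RNA of 16 cultures was labelled with Cy3 (replicates 1 and 3) or Cy5 (replicates 2 and 4) and hybridised to 8 2-colour Agilent rat arrays. Groups came from source labels and titles; a description field naming adult brain tissue contradicts the culture protocol and was not used. The deposited intensity values are, per the file headers, mean spot signals and local backgrounds, not normalized, read with Agilent Feature Extraction 10.7.3.1 (version per the submitters' processing notes). The deposited log2 values equal the median signal minus the median background, log2, minus each column's median (slope and r of 1 against the scanner values, column medians of 0); it served as an alternative. Both files of an array hold the same scan, and each sample was read in its own dye. Positions of probes were taken from the annotation column of the arrays, which is on rn4.

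Background was corrected by normexp (offset 50), dyes were balanced by loess and arrays aligned by Aquantile in limma 3.58.1 (statmod 1.5.0, R 4.3.3). Outlier spots were set to missing, spots of a probe averaged, and probes kept if well above background in at least 4 samples, with at least 12 values and at least 2 per group. limma fitted group and dye with the array as a random block (correlation 0.562, 11 residual and 4.05 prior degrees of freedom), on 27294 probes. P values are two-sided and Benjamini-Hochberg adjusted over all of them. The fit was tested on simulated data. Of 89 Rab probes 77 matched a RefSeq symbol by accession, 74 the same as the array name. Plots used matplotlib 3.10.9 in Python 3.11.15.

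The members, lists and alternatives were chosen with earlier results of these data known. Values in every sample follow a rule: Rab4b, Rab9b and Rab10, and each other Rab probe past the threshold with a log2 difference of at least 1 in a comparison. Further probes of Rab9b and Rab10 are given mainly by means and SD. Sample values of Rab5c, Rab36, Rab5a and Rab1b lie outside the rule and were chosen after they were seen. Up to 3 regulators per list, comparison and direction with the smallest p could be named; other Rabs are examples chosen after their values were seen. Same-numbered samples of knockdown and nontargeting cultures correlated at 0.137, 0.156, 0.264 and 0.201 after group means were removed. Those of knockdown and not transduced cultures correlated at 0.166 to 0.267. With the dye removed as well the lowest were 0.0705 and 0.0391. The replicate number was therefore run as a block in an alternative. The main fit holds no replicate term, so the SEs and p values given are unpaired. Alternatives changed the background correction, alignment, filters, outlier handling, array block, probe choice, replicate block, slide and samples. A gene and a marker list are not reported here.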

Additional observations from a re-analysis of the deposited data

Results flagged for a closer look

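Each group of 4 samples was searched for a sample far from the rest, which chance gives in about 1 of 20 groups. Of 53 groups with all 4 values, over the probes of the Rabs named by the rule, 4 held such a sample. Nontargeting replicate 2 of Rab4b gave 9.5339, above the other 3 samples at 9.4862 to 9.4938, a gap that is small beside the distance to the other groups. Knockdown replicate 4 of the dimmer Rab9b probe gave 7.2176, against 7.3427 to 7.3562. Overexpression replicate 2 of the second Rab6a probe gave 10.0267, against 10.8903 to 11.0658. Overexpression replicate 1 of a Rab6b probe gave 10.6975, against 12.0119 to 12.031.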

How the results depend on the processing

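For the Rabs named by the rule, only log2 differences past the threshold in the main fit were followed over the alternatives. None of these changed direction, and that of Rab4b in knockdown against nontargeting cultures ranged from 2.64 to 3.09. Sizes moved more for the second Rab9b probe (-2.52 to -0.46 in knockdown and -1.27 to -0.35 in nontargeting, against not transduced), the brighter Rab9b probe in knockdown against nontargeting (-1.39 to -0.72) and the second coding Rab10 probe in knockdown against not transduced (-0.80 to -0.34). Calls of Rab20, Rab7a, Rab6b and Rab6a that were lost are given with those genes. The cause of these changes was not tested unless fewer samples or probes entered. Without the array block, probes past the threshold numbered 9791 in knockdown against nontargeting, 10800, 7108 and 30 in nontargeting, knockdown and overexpression against not transduced; the Rab probes numbered 34, 46, 22 and 1, and the machinery probes 64, 65 and 37 in all but the last. With 1 value per array there were 3577, 3846, 1121 and 0 probes, 15 and 5 Rab probes in nontargeting and knockdown against not transduced, and 24, 21 and 1 machinery probes. Without alignment between arrays there were 11924, 2716 and 0 probes in knockdown against nontargeting and in nontargeting and overexpression against not transduced, 13 and 4 Rab probes in nontargeting and knockdown against not transduced, and 72 and 21 machinery probes in knockdown against nontargeting and nontargeting against not transduced. That setting moved the median of all probes to 0.64, -0.22 and 0.31 in knockdown against nontargeting, nontargeting and knockdown against not transduced, and the share of calls that were higher from 48.8%, 50.3% and 47.1% to 97.2%, 4.42% and 86.9%. The deposited table moved the higher share to 78.5% in knockdown against nontargeting (median 0.16) and 81.8% in knockdown against not transduced (0.19), with 12 Rab probes higher and 4 lower in the former, and gave 5 Rab probes in the latter and 4 probes for overexpression. With 1 probe per gene name, 13 and 4 Rab probes passed in nontargeting and knockdown against not transduced.

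Leaving out a knockdown array (replicates 1 and 2, or 3 and 4) left 3263 or 3508 probes, 10 or 9 Rab probes and 20 or 18 machinery probes in knockdown against nontargeting, and 1128 or 1273 probes in knockdown against not transduced, with 5 Rab and 3 machinery probes without the second. Without a nontargeting array, knockdown against not transduced gave 21 or 18 machinery probes and, without replicates 3 and 4, 4215 probes. Without not transduced replicates 1 and 2 it gave 1834, and without replicates 3 and 4 the machinery probes in nontargeting against not transduced were 25. In overexpression against not transduced the processed signal gave 2 probes, the single slide 0, leaving out a not transduced array 6 or 16, an overexpression array 38 or 39, and the second knockdown array 0. Leaving out 1 sample gave 0 to 1 probes there, 14 to 23 Rab probes in knockdown against nontargeting, 19 to 26 in nontargeting against not transduced, 6 to 10 in knockdown against not transduced, and 5 to 13 machinery probes in the last. With the replicate block 24, 27, 13 and 0 Rab probes passed in these comparisons, in the order given first, and no total moved by over 1.5 times, though the Rab probes higher in knockdown went from 7 to 12 against nontargeting and from 1 to 2 against not transduced. Some probes were well above background in part of the samples, such as those of Rab20 and the second Rab9b probe.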

Other observations

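The 2 knockdown arrays split on some Rab genes, a pattern noticed after the values were seen. Rab36 gave 11.36 and 11.24 in knockdown replicates 1 and 2, which share an array, and 9.97 and 9.99 in replicates 3 and 4, while the 4 not transduced samples lay between 11.06 and 11.39 and the 4 nontargeting samples between 10.12 and 10.48. The intron-spanning Rab10 probe gave 10.94 and 10.79 on the first array and 9.92 in the 1 value of the second, and the brighter Ocrl probe gave 10.07 and 10.03 against 8.57 and 8.96. Rab5a split in the same manner between the nontargeting arrays, at 8.61 and 8.77 in replicates 1 and 2 and at 10.08 and 9.74 in replicates 3 and 4. Both probes of Rab1b were higher on the array of overexpression replicates 1 and 2 (8.77 and 8.42 on the first probe) than on that of replicates 3 and 4 (7.71 and 7.72).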
